A study of Mus musculus with 2 samples.

Results

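The genes of antigen presentation by the major histocompatibility complex (MHC) were described in 2 droplet single-cell libraries of mouse cortex at postnatal day 5. The members were 9 of the 32285 genes in the table, taken by symbol: H2-K1, H2-D1, B2m and Tap1 of the class I pathway, and H2-Aa, H2-Ab1, H2-Eb1, Cd74 and Ciita of the class II pathway. All 9 were found. They, and the division of astrocytes by Serpinf1, were chosen with values of these libraries known, so the levels that led to the choice are descriptions. One library was labelled Katnal2 wild type (WT) and the other Katnal2 mutant (Mut). Katnal2 encodes a relative of katanin, an enzyme that severs microtubules. Both libraries came from cortex, whose cells were freed with trypsin and collagenase, strained, sorted and captured with 10x Genomics beads. The labels also speak of frozen storage. The strain, sex and number of the animals, the sort gate and the mutated part of Katnal2 are not stated in the labels. The design text speaks of replicates, but no barcode carries a replicate mark, so each genotype was 1 library, no test was possible, and every interval below covers counting error only.

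MHC molecules carry peptides to the cell surface for T cells to inspect. In class I, a heavy chain (H2-K1 or H2-D1) pairs with the light chain B2m, and the transporter to which Tap1 belongs supplies peptides cut by the proteasome. In class II, an alpha and a beta chain pair as I-A (H2-Aa with H2-Ab1) or I-E (H2-Eb1 with an alpha chain), the invariant chain Cd74 guards the groove, H2-DM helps load peptides and Ciita switches the genes on. Class I is found on most nucleated cells and is low on neurons, whereas class II is known mainly from B cells, dendritic cells and activated macrophages.

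Of the 9 members, 6 lie on mouse chromosome 17 (GRCm38): H2-K1 at chr17:33996017-34000347, Tap1 at chr17:34187553-34197225, H2-Ab1 at chr17:34257689-34269419, H2-Aa at chr17:34282744-34287823, H2-Eb1 at chr17:34305867-34316674 and H2-D1 at chr17:35262730-35267499. B2m lies at chr2:122147686-122153083 and Ciita at chr16:10480059-10528418. GENCODE vM21 gives all 9 as protein-coding genes. H2-K1 and H2-D1 are close relatives within a large gene family, and reads that match several copies may be split or lost between them, so their counts carry that uncertainty.

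RefSeq promoters (GRCm38.p6, 250 bases before to 50 bases after the start site) were at hand for 6 of the 9 members. Those of 2 class II chains and of the 3 class I chains are shown because the members of each class were described together below and a reader may compare the elements they share. Capitals mark the Y box (ATTGG, or CCAAT on the other strand), the core of the interferon-stimulated response element (GAAA, any 2 bases, GAAA) and the kB site of the class I enhancer A (the longest run of capitals in the H2-K1 line). All were searched on both strands, and no matches overlapped.
H2-Aa, chr17:34287774-34288073, minus strand: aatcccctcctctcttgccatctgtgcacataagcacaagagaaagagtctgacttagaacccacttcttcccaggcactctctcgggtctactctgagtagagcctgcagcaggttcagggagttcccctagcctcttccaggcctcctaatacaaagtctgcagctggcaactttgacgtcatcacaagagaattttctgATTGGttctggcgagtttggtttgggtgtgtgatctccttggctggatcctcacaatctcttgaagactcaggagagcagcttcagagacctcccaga
H2-Eb1, chr17:34305617-34305916, plus strand: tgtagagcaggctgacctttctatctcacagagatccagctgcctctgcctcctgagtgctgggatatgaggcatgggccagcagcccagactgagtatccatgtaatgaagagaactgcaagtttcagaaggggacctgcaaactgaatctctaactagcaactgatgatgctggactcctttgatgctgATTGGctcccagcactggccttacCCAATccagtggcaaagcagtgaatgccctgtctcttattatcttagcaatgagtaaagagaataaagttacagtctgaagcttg
H2-K1, chr17:34000298-34000597, minus strand: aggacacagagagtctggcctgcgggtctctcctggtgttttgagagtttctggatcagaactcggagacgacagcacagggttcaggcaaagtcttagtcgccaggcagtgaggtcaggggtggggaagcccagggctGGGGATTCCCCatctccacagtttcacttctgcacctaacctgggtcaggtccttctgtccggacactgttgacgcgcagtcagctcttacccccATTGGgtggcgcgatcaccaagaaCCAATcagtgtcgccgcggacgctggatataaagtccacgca
H2-D1, chr17:35262844-35263143, plus strand: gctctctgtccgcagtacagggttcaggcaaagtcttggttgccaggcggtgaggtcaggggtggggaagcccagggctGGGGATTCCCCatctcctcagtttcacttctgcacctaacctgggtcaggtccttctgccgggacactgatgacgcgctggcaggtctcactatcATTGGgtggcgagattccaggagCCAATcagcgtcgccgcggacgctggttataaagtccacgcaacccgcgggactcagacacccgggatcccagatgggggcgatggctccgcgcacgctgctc
B2m, chr2:122147437-122147736, plus strand: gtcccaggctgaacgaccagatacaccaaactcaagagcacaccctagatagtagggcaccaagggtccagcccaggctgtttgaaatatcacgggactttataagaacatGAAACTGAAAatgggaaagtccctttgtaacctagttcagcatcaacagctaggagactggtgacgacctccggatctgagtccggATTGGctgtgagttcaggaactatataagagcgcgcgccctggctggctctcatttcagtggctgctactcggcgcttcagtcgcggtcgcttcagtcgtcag
The Y box was in all 5, and in 37.4% of the 32851 promoters of the table. The enhancer A site was in H2-K1 and H2-D1 and in 0.0304% of all promoters. The interferon element was in B2m and in 3.44% of all promoters. A match is a description of the letters, not a shown binding site. The Tap1 promoter held a Y box on the minus strand and neither of the other elements.

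Barcodes were kept from 1000 unique molecular identifiers (UMIs) and 500 genes upward where the mitochondrial share did not exceed 20%. They numbered 11024 in WT and 10102 in Mut, with a median of 6446 and 7626 UMIs. Of these barcodes, 39 sequences occurred in both libraries. A barcode was given to the class of which it held the most markers, with at least 3 detected, which placed 9412 and 8726 barcodes. Barcodes in which another class also had at least 3 markers and more than 50% as many, 606 and 683, were left out as mixed. Katnal2 itself was at 3.87 CPM (UMIs per 1000000; 3.46 to 4.31) in WT and 4.82 CPM (4.37 to 5.30) in Mut over all kept barcodes, so its RNA was not lower in the library labelled mutant. Since the mutated part is not known here, that level does not check the label. RNA free in the suspension, read from barcodes of 10 to 100 UMIs, held all members, from 0.211 CPM (Ciita, WT) to 181 CPM (B2m, Mut), and its part in low values was not tested.

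B2m, the light chain, was most abundant in the 2 macrophage classes. Microglia held 1052 CPM in WT (95% Poisson interval 1013 to 1092, 406 cells) and 1093 in Mut (1050 to 1137, 310 cells). Border-associated macrophages, which sit along vessels and in the meninges, held 1119 (1041 to 1202, 100 cells) and 1230 CPM (1180 to 1280, 248 cells). Endothelial cells followed at 234 and 272 CPM, fibroblasts at 244 and 280, and mural cells, which wrap small vessels, at 205 and 188.5. Oligodendrocyte precursors were at 85.2 and 96.1 CPM, astrocytes at 61.9 and 68.1, and inhibitory neurons at 8.42 and 12.3, below the free RNA level of 156 and 181 CPM. The order of the 8 classes with at least 50 cells in both libraries was the same in both, with overlapping intervals between fibroblasts and endothelial cells in each. In WT the intervals of the 2 macrophage classes also overlapped, as did those of endothelial and mural cells.

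The heavy chain H2-D1 had another order. It was highest in border-associated macrophages (524 CPM in WT and 655 in Mut), then in endothelial cells (421 and 503) and microglia (323 and 443). Oligodendrocyte precursors, at 103 and 131 CPM, stood above astrocytes, at 36.7 and 53.3. Inhibitory neurons held 37.8 and 42.6 CPM, beside 139 and 171 CPM in free RNA.

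For H2-K1, the other heavy chain, microglia held 287 CPM in WT (266 to 308) and 403 in Mut (378 to 430), and border-associated macrophages 283 and 354. Astrocytes, at 103 and 130 CPM, were here above oligodendrocyte precursors, at 35.9 and 45.2, the reverse of the H2-D1 order. Endothelial cells were at 112 and 167 CPM and mural cells at 32.2 and 62.0. Inhibitory neurons were lowest of the classes with at least 100 cells, at 7.08 and 10.9 CPM. A UMI of H2-K1 was seen in 48.4% of astrocytes in WT and 61.1% in Mut (medians 8352 and 9544 UMIs per cell), against 3.36% and 5.43% of inhibitory neurons (3889 and 4452 UMIs). With every cell thinned to 1000 UMIs the shares were 9.28% and 11.3% against 1.01% in both libraries.

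Tap1, a subunit of the peptide transporter, was low in every class. It reached 19.6 CPM in WT and 16.7 in Mut in microglia, 17.8 and 15.1 in border-associated macrophages, and 2.33 and 3.20 in astrocytes. Inhibitory neurons had 0 of 7481733 UMIs in WT, which allows up to 0.401 CPM, and 4 UMIs in Mut. Among the partners of class I, Psmb8, a subunit of the immunoproteasome, was at 151 and 119 CPM in microglia and at 1.98 and 2.21 in astrocytes. Calr, a chaperone of the endoplasmic reticulum, was at 816 and 856 CPM in microglia and 728 and 734 in astrocytes. Nlrc5, which switches on class I genes in lymphocytes, had at most 6 UMIs in any of the 8 classes in either library.

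**Figure D1:**
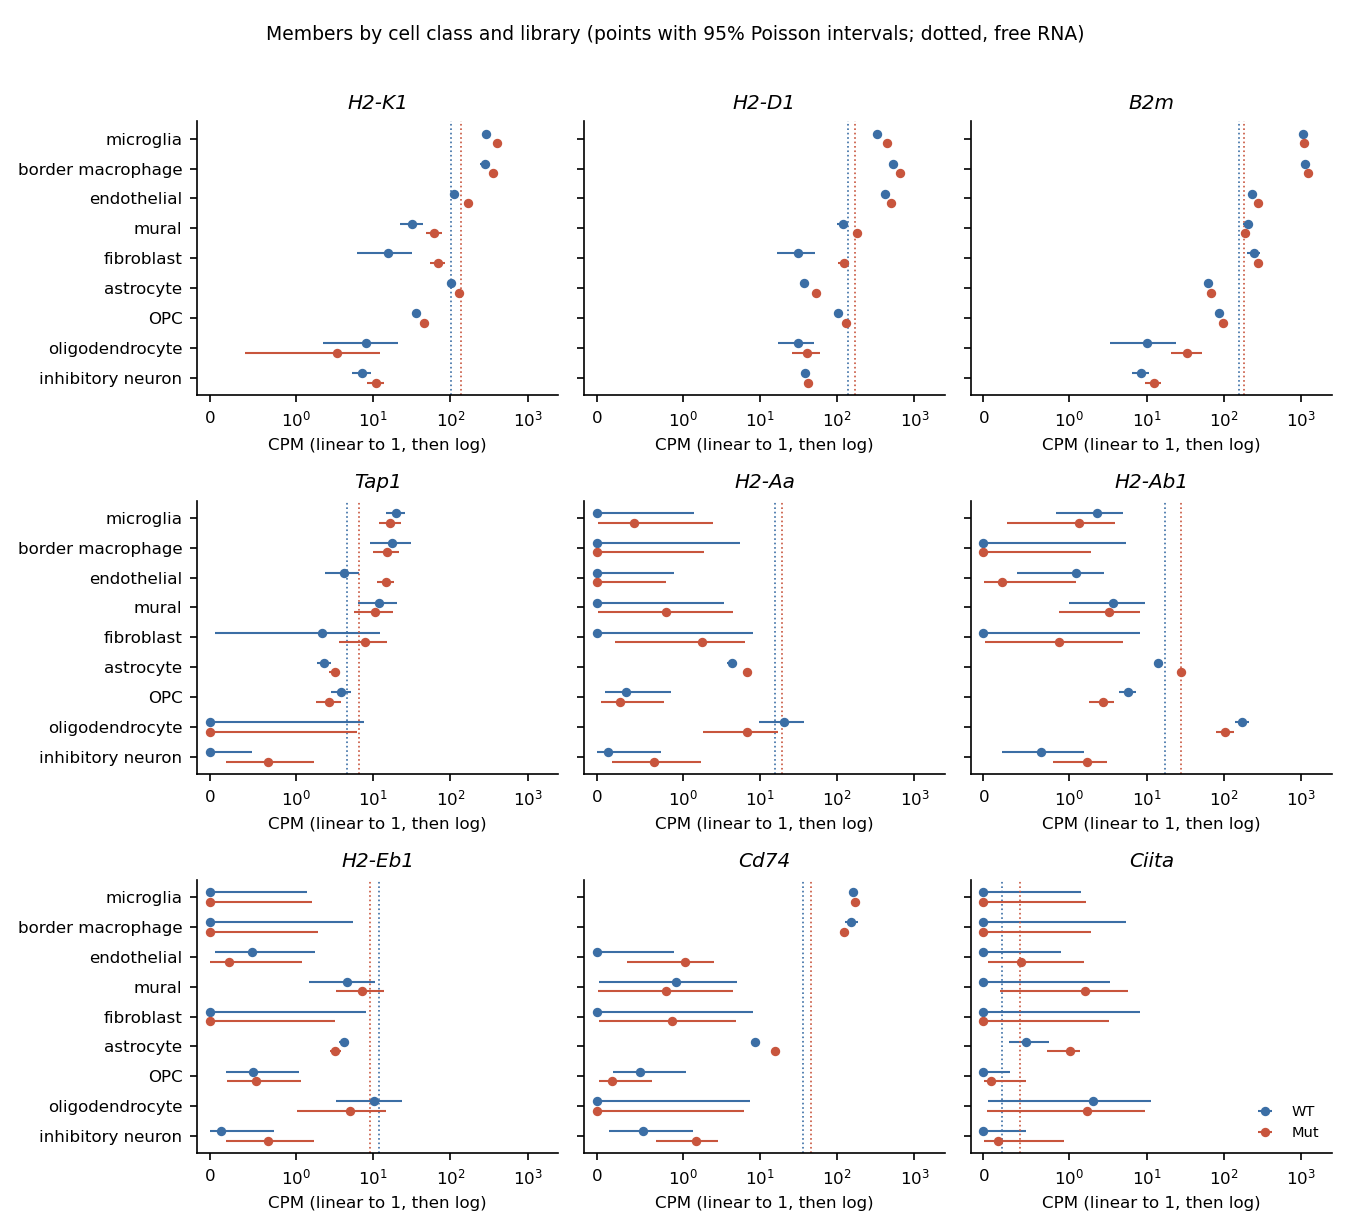
Levels of the 9 members (CPM, horizontal axis linear to 1 and then logarithmic) in 9 cell classes, WT in blue and Mut in red, with 95% Poisson intervals; dotted lines mark free RNA. B2m is highest in the 2 macrophage classes, which hold Cd74 but few or no UMIs of H2-Aa, H2-Ab1 and H2-Eb1, while oligodendrocytes hold H2-Ab1 without Cd74.

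The 2 libraries were set against each other within the 7 classes of at least 100 cells in each, on log2(CPM + 5) for members with at least 30 UMIs over both. A difference of 1.5-fold or more on that scale counted as called. H2-K1 was higher in Mut in 7 of 7 classes, with a median log2 ratio of 0.40 (0.29 to 0.85). Its raw ratio interval lay above 1 in all 7, from 1.25 (1.06 to 1.48) in border-associated macrophages to 1.93 (1.28 to 2.97) in mural cells. H2-D1 was higher in 7 of 7 as well, with a median of 0.33, and the interval lay above 1 in 6, not in inhibitory neurons (1.13, 0.946 to 1.34). Each passed 1.5-fold in 1 class, mural cells, where 5.02% of the 7706 genes measured were higher in Mut by that much and 1.76% lower. No member was called in microglia (0 of 5 measured, beside 3.09% of genes called higher and 0.857% lower) or border-associated macrophages (0 of 5, beside 6.45% and 2.83%). None was called in oligodendrocyte precursors (0 of 5, beside 0.115% and 0.139%) or inhibitory neurons (0 of 3, beside 0.439% and 0.29%). The median over all genes was 0.03 in astrocytes and 0.10 in microglia. With TMM scaling of class sums in place of total UMIs, the median over all genes moved from 0.10 to -0.03 in microglia and from 0.04 to 0.15 in border-associated macrophages, and both heavy chains stayed higher in Mut in all 7 classes. The call of H2-D1 in mural cells was lost there, at 0.56 in place of 0.62. B2m was higher in 6 of 7 classes with a median of 0.14 and passed 1.5-fold in none. Under TMM it was lower in Mut in microglia (-0.10) as well as in mural cells.

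Endothelial cells had the widest difference of a class I member. Tap1 had 17 UMIs in WT (4.15 CPM) and 67 in Mut (14.6 CPM), or 3.51 times the level (2.04 to 6.37), where 1.15% of the 10238 genes measured were called higher and 0.615% lower. Most of the Mut UMIs were in female cells: Tap1 was at 5.51 CPM in WT female cells (7 UMIs), 2.93 in WT male cells (7), 21.4 in Mut female cells (54) and 4.45 in Mut male cells (6). The Mut to WT ratio was 3.88 (1.76 to 10.1) among female cells and 1.52 (0.421 to 5.27) among male cells. All 12 measured partners of class I were higher in Mut in endothelial cells, 1 of them past 1.5-fold: Psmb9, an immunoproteasome subunit, at 9.53 and 26.5 CPM. Their median was 0.23 beside 0.05 over all genes. Of 16 measured genes of interferon signalling and response, 13 were higher and 5 were called higher, with a median of 0.33. Among them were the transcription factors Irf1 and Irf7, and Gbp3, a guanylate-binding protein. Irf1 was at 13.2 CPM in WT and 27.6 in Mut, and Gbp3 at 15.1 and 27.6. In astrocytes, 0 of 12 measured class I partners and 0 of 18 interferon genes were called in either direction, where 0.166% of 14444 genes were called higher and 0.132% lower. In border-associated macrophages, 4 of 16 interferon genes were called higher, beside 6.45% of 7314 genes. These 4 rested on 3 to 9 UMIs each in WT, and the ratio intervals of Irf1 and Ifit3 included 1.

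The heavy chains differed between female and male cells, and not in the same direction in the 2 libraries. Cells were called female by Xist and male by 4 Y-linked genes, 3822 and 4258 in WT and 5248 and 2757 in Mut. Barcodes with UMIs of both kinds or of neither, 2944 in WT and 2097 in Mut, were left unassigned. Values given by sex leave these barcodes out, whereas values for all cells include them. How many animals gave each is not known, so sex and animal cannot be told apart. H2 genes are also known to vary between mouse strains, and whether the counts of H2-K1, H2-D1 and H2-Eb1 depend on the allele a cell carries was not tested. In astrocytes, H2-K1 was at 59.1 CPM in WT female cells, 133 in WT male cells, 146 in Mut female cells and 108 in Mut male cells. WT female cells stood apart below the other groups, with no overlap of intervals. The female to male ratio of H2-K1 in WT was below 1 in 6 of 6 classes measured, with a median of 0.478 (0.445 to 0.606) and the interval below 1 in each. In Mut it was above 1 in 7 of 7, with a median of 1.36, and the interval was above 1 in 4.

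H2-D1 had the same layout. In astrocytes it was at 21.4 CPM in WT female cells, 47.4 in WT male cells, 59.7 in Mut female cells and 41.1 in Mut male cells. In endothelial cells the values were 278, 485, 555 and 422 CPM in that order, and in microglia 229, 378, 497 and 359. The female to male ratio was below 1 in 7 of 7 classes in WT (median 0.526) and above 1 in 7 of 7 in Mut (median 1.31).

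Set by sex, the library ratio therefore split. Among female cells H2-K1 was higher in Mut in 7 of 7 classes, with a median ratio of 2.47, and H2-D1 in 7 of 7, with a median of 2.17. Among male cells H2-K1 was lower in Mut in 6 of 6 classes (median 0.871, interval below 1 in 2), and H2-D1 in 7 of 7 (median 0.872, interval below 1 in 2). The ratio for all cells of each library is thus not that of either sex. B2m, on chromosome 2, did not have this layout: in astrocytes it was at 62.2, 61.3, 70.3 and 64.0 CPM in the same order of groups, and its female to male ratio in WT had a median of 1.01, with no interval off 1. In Mut that median was 1.10, with the interval above 1 in 3 of 7 classes, and among female cells the Mut to WT ratio had a median of 1.13, with the interval above 1 in 3.

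Other chains of the family were looked at in the same 4 groups of astrocytes. H2-Q4 was at 5.65, 4.56, 5.51 and 5.58 CPM, and H2-T22 at 14.4, 10.2, 9.25 and 9.71 CPM in the order WT female, WT male, Mut female, Mut male. Neither followed the heavy chains. Tapbp, which bridges the transporter and the heavy chain, was at 18.8, 12.4, 16.2 and 16.8 CPM. Of genes outside the family, Rpl29, a ribosomal protein, was at 600, 586, 372 and 31.9 CPM, and Lamtor3, a lysosomal scaffold protein, at 16.2, 28.1, 65.0 and 16.6 CPM. Those last genes were chosen after their values were seen. Differences among the 4 groups were thus not limited to MHC genes, and their part in the results for H2-K1 and H2-D1 was not tested.

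**Figure D2:**
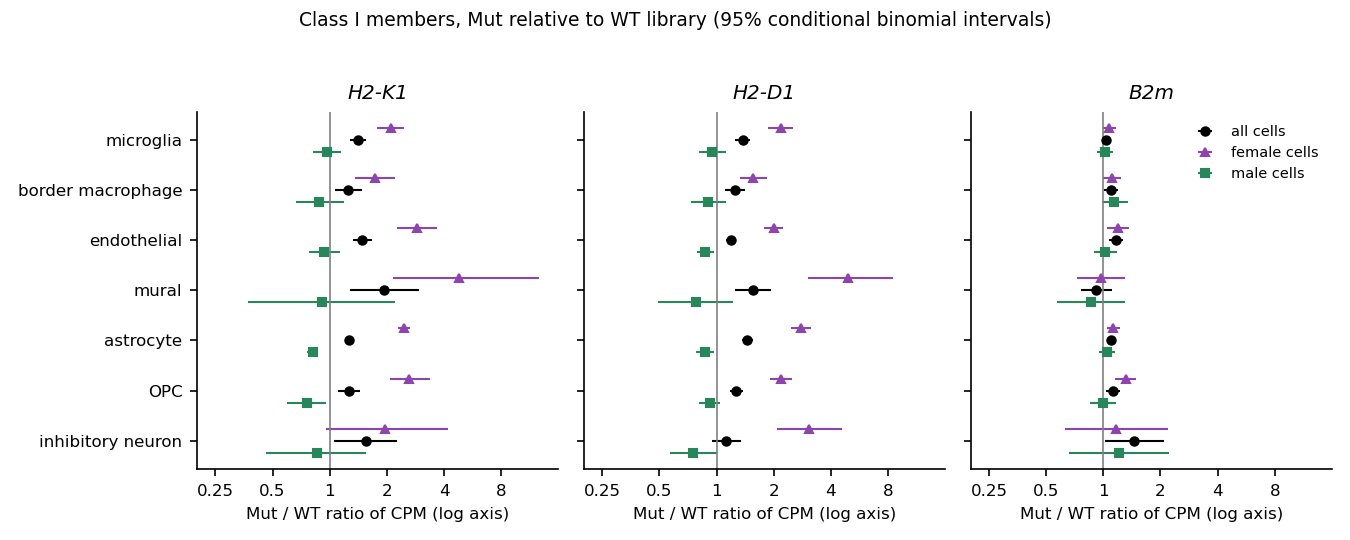
Ratio of Mut to WT CPM (log axis) of H2-K1, H2-D1 and B2m in 7 cell classes for all cells (black circles), female cells (purple triangles) and male cells (green squares), with 95% conditional binomial intervals. Female cells lie to the right of 1 and male cells to its left for H2-K1 and H2-D1, while B2m lies between 0.864 and 1.46.

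Class II genes were unevenly spread over the classes. In microglia Cd74, the invariant chain, was at 162 CPM in WT (147 to 178) and 168 in Mut (151 to 186), and in border-associated macrophages at 152 (124 to 185) and 123 (108 to 139). The chains it accompanies were nearly absent there. Border-associated macrophages had 0 UMIs of H2-Aa, H2-Ab1 and H2-Eb1 in both libraries, which allows up to 4.44 CPM in WT and 1.56 CPM in Mut for each. Microglia had 6 and 3 UMIs of H2-Ab1, 0 and 1 of H2-Aa and 0 in both of H2-Eb1. Ciita, the class II switch, had 0 UMIs in both macrophage classes. H2-DMa, a subunit of the peptide loader, had 105 UMIs in microglia of WT (40.3 CPM) and 43 in those of Mut (18.9 CPM). It was the one gene of 12 measured class II partners called in microglia, where 0.857% of 8865 genes were called lower. Ctss, the protease that trims the invariant chain, was at 1480 and 1463 CPM in microglia.

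The sum of the 3 chains H2-Aa, H2-Ab1 and H2-Eb1 was highest in astrocytes among the 8 classes of at least 50 cells, at 22.6 CPM in WT (21.1 to 24.1) and 37.9 in Mut (36.1 to 39.7). Mural cells followed at 8.27 and 11.3 CPM from 9 and 14 UMIs. Oligodendrocytes, with 46 cells in WT and 47 in Mut, fell below that minimum and were not ranked. Their H2-Ab1 alone stood above the astrocyte sum, at 172 and 104.5 CPM. Astrocytes held 59.5% of all UMIs of these chains in WT and 67.9% in Mut. With Cd74 added, microglia came first among the 8 classes (164 and 170 CPM) and astrocytes came after both macrophage classes (31.2 and 53.7). Free RNA held 44.9 and 56.8 CPM of the 3 chains, above the average astrocyte, and endothelial cells, in the same suspension, held 1.71 and 0.435.

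Within astrocytes, class II RNA sat in the cells with Serpinf1, which encodes a secreted protein also known as PEDF. Astrocytes with at least 2 Serpinf1 UMIs numbered 489 of 4632 in WT (10.6%, 9.69 to 11.5) and 692 of 4392 in Mut (15.8%, 14.7 to 16.9). Here H2-Ab1 was at 92.6 CPM in WT and 140 in Mut, against 2.27 and 3.16 in astrocytes with 0 Serpinf1 UMIs. H2-Aa was at 32.1 and 36.7 CPM, against 0.333 and 0.396. H2-Eb1 was at 28.8 and 16.6 CPM, against 0.484 and 0.335. All 3 chains were thus many times higher on the Serpinf1 side in each library.

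The genes that act with the chains followed. Cd74 was at 67.0 CPM in WT and 86.1 in Mut, against 0.333 and 0.578 in Serpinf1-negative astrocytes. Ciita had 13 UMIs in WT and 29 in Mut, or 2.66 and 3.78 CPM, against 0.151 and 0.304. The sum of H2-Aa, H2-Ab1, H2-Eb1 and Cd74 was 221 against 3.42 CPM in WT, 64.5 times as high (53.1 to 79.1), and 280 against 4.47 in Mut, 62.5 times as high (52.9 to 74.4). Because Serpinf1 was picked for this difference, the ratios describe the cells and carry no test. The class I members differed far less and in both directions. H2-K1 was at 73.2 against 107 CPM in WT and 104.5 against 135 in Mut, and B2m at 61.9 against 61.7 and 57.3 against 70.6. H2-D1 was at 40.3 against 36.5 CPM in WT and 57.7 against 51.4 in Mut (ratio 1.12, 1.01 to 1.25), and Tap1 at 2.86 against 2.21 and 4.31 against 2.89. Other class I and class I-like heavy chains were higher in 6 of 6 measured in WT and 7 of 7 in Mut, none past 1.5-fold, with medians of 0.27 in both.

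The sum was higher in each group with more Serpinf1 UMIs. In WT it was 3.42 CPM at 0 UMIs, 28.1 at 1, 45.6 at 2 to 4, 137 at 5 to 9 and 930 at 10 or more (71 cells). In Mut it was 4.47, 14.8, 72.1, 222 and 688 CPM (167 cells in the last group). Cells just outside the threshold, with 1 UMI, numbered 239 and 272, and those just inside, with 2 UMIs, 125 and 139. Median depth went from 8098 UMIs per cell at 0 to 10550 at 10 or more in WT and from 9277 to 11000 in Mut. With cells thinned to 1000 UMIs, a class II UMI was found in 11.9% of Serpinf1-positive cells against 0.384% of negative ones in WT, and in 14.0% against 0.583% in Mut. Before thinning the shares were 31.1% against 2.18% and 37.0% against 3.38%, beside 0.570% and 0.829% of inhibitory neurons.

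Macrophage RNA was measured in the same cells with 10 pan-macrophage genes (Csf1r, C1qa, C1qb, C1qc, Tyrobp, Fcer1g, Cx3cr1, Aif1, Ptprc, Laptm5). All 10 had a UMI in the Serpinf1-positive astrocytes of WT and 9 of 10 in those of Mut, where Ptprc was at 0. Their sum was 46.0 CPM in WT, against 14.7 in Serpinf1-negative astrocytes, and 13.6 against 16.4 in Mut, while microglia held 21610 and 20460 CPM. In WT, 34 of the 489 cells (6.95%) had any such UMI, against 5.87% of the negative ones, and 214 of the 225 UMIs were in cells with 2 to 4 Serpinf1 UMIs. At 10 or more Serpinf1 UMIs, where class II was highest, the macrophage sum was 2.45 CPM in WT and 12.6 in Mut. Without every astrocyte that held one, the class II ratio was 65.7 (53.8 to 81.0) in WT and 66.3 (55.3 to 80.1) in Mut.

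**Figure D3:**
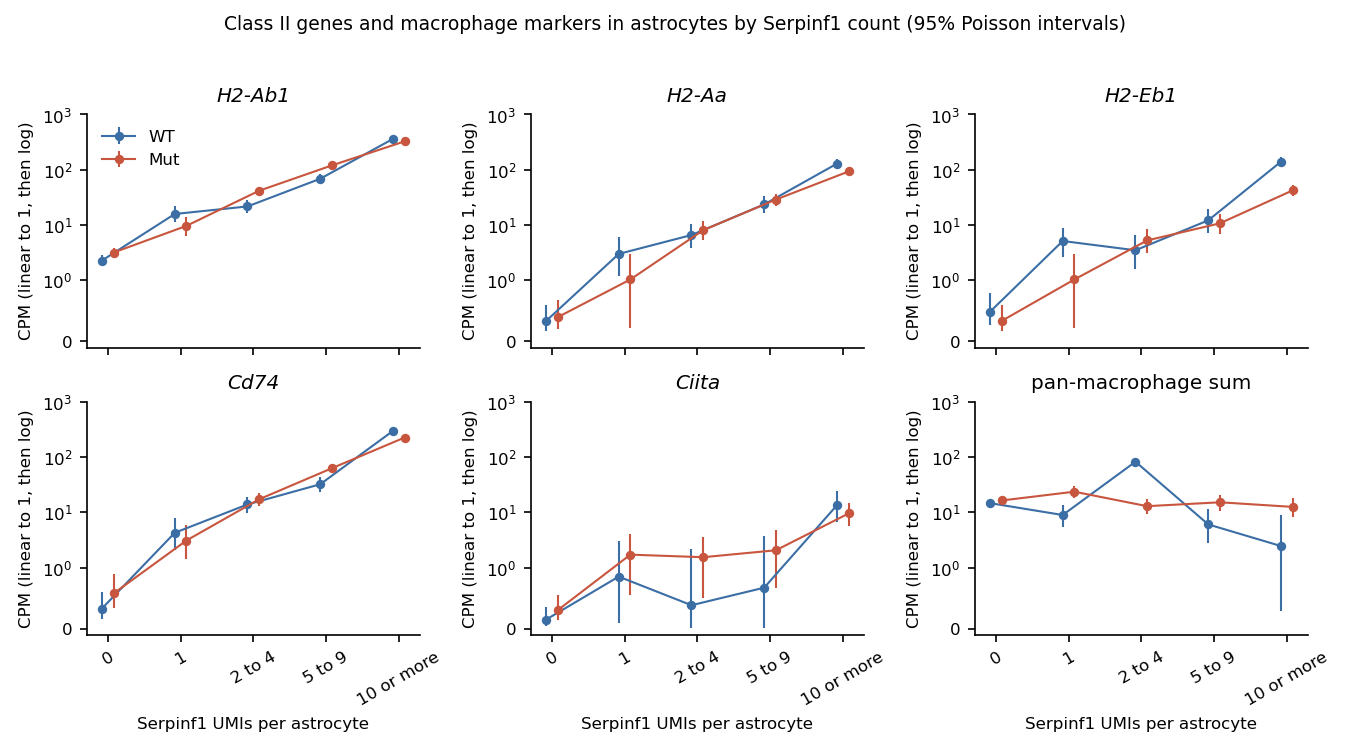
CPM (linear to 1, then logarithmic) of H2-Ab1, H2-Aa, H2-Eb1, Cd74, Ciita and the summed 10 macrophage markers in astrocytes grouped by their Serpinf1 UMIs, WT in blue and Mut in red, with 95% Poisson intervals. The class II genes are higher at 10 or more Serpinf1 UMIs than at 0 in both libraries, and the macrophage sum does not follow them.

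A minority of the Serpinf1-positive astrocytes carried most of the class II RNA. Astrocytes with at least 3 class II UMIs numbered 84 in WT and 143 in Mut, and 70 (83.3%) and 132 (92.3%) of them had at least 2 Serpinf1 UMIs. The 10 richest cells held 37.9% of astrocyte class II UMIs in WT and 23.9% in Mut, with 70 and 105 UMIs in the richest one. The class II genes were found in the same cells. Of Serpinf1-positive astrocytes with an H2-Ab1 UMI, 38.6% in WT and 43.0% in Mut also had Cd74, against 4.97% and 1.75% of those without, at near equal depth (medians 9320 and 9354 UMIs in WT, 10290 and 10560 in Mut). Ciita was in 7.87% and 8.94% with H2-Ab1, against 0.276% and 0.657% without. H2-K1 was found at 44.9% against 43.6% in WT and 57.9% against 57.5% in Mut.

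Of 19 listed partners of class II, 10 had enough UMIs in the comparison of Serpinf1-positive with negative astrocytes, and 2 were called higher in each library, H2-DMa and H2-DMb1, which form the peptide loader H2-DM. In WT 2.1% of 13218 genes were called higher and 1.77% lower, and in Mut 2.09% and 1.41% of 13360. H2-DMa was at 37.2 against 3.93 CPM in WT and 40.6 against 4.47 in Mut, and H2-DMb1 at 8.59 against 0.151 and 9.91 against 0.152. H2-DMb1 had 42 against 5 UMIs in WT and 76 against 5 in Mut. It thus had enough UMIs only through the Serpinf1-positive cells, the side on which it was high. Its call is therefore tied to its being measured and is a description only. H2-DMa had enough UMIs in the negative cells alone, with 130 in WT and 147 in Mut. The other partners measured stayed within 1.5-fold on log2(CPM + 5), among them Ctsl and Lgmn, lysosomal proteases, and Rfx5, Rfxap and Rfxank, the factors that bind class II promoters. On that scale low genes are pulled together: Ctss had 17 against 28 UMIs in WT, a plain ratio of 4.10 (2.11 to 7.76), and 6 against 41 in Mut, 0.627 (0.218 to 1.49). The list's median log2 ratio was 0.25 in WT and 0.10 in Mut, beside -0.02 over all genes in both. Of the interferon genes, 0 of 14 and 0 of 15 measured were called, with medians of 0.10 and 0.09. The alpha chain of I-E, H2-Ea, was not found in the gene table.

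Serpinf1-positive astrocytes with at least 3 class II UMIs were also set against those with none, 70 against 337 cells in WT and 132 against 436 in Mut. The genes given here were chosen after their values were seen. Gfap, the intermediate filament of fibrous astrocytes, was at 1461 against 216 CPM in WT and 1281 against 175 in Mut. C4b, a complement component, was at 49.2 against 9.20 CPM and 56.1 against 7.20. Nrp2, a semaphorin receptor, was at 77.9 against 15.4 CPM in WT and 112 against 16.9 in Mut, and the secreted phospholipase Pla2g3 at 403 against 130 and 545 against 145.

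Between libraries, astrocyte H2-Ab1 stood at 14.0 CPM (WT) and 27.8 (Mut), 1.98 times as high (1.79 to 2.19), and Cd74 at 8.66 and 15.8, or 1.83 (1.60 to 2.09). They were the 2 of 9 members called higher in astrocytes, where 0.166% of 14444 genes were called higher and 0.132% lower. Cd74 lies on chromosome 18, as does Katnal2, and any bearing of this on its level was not tested. Its ratio was 1.04 (0.902 to 1.196) in microglia and 0.805 (0.636 to 1.025) in border-associated macrophages. In astrocytes H2-Aa was at 4.34 and 6.83 CPM (1.57, 1.30 to 1.91) and Ciita at 0.496 and 1.01 (2.04, 1.18 to 3.65). H2-Eb1 went the other way, at 4.19 and 3.25 CPM (0.774, 0.614 to 0.973). Within Serpinf1-positive astrocytes the ratio of the class II sum was 1.27 (1.18 to 1.37), smaller than the 1.72 (1.60 to 1.84) of all astrocytes. The share of astrocytes with at least 2 Serpinf1 UMIs was larger in Mut, whose astrocytes were also deeper (median 9544 UMIs against 8352). The part of depth in that share was not tested. The Mut to WT ratios of the class II sum differed between female and male cells, where sex and animal cannot be told apart. Among female astrocytes the class II sum was 0.917 times the WT level (0.840 to 1.001), and among male ones 2.57 times (2.19 to 3.02). Among Serpinf1-positive astrocytes the values were 0.685 (0.624 to 0.752) and 2.06 (1.74 to 2.45). In Serpinf1-positive astrocytes of both sexes H2-Ab1 had a ratio of 1.51 (1.36 to 1.69) and H2-Eb1 of 0.575 (0.449 to 0.736).

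The class II chains also differed by the sex of the cell. In Serpinf1-positive astrocytes H2-Eb1 was at 63.6 CPM in WT female cells (127 UMIs in 200 cells), 2.84 in WT male cells (6 UMIs in 201 cells), 5.19 in Mut female cells (23 UMIs in 396 cells) and 21.5 in Mut male cells (43 UMIs in 181 cells). Of these groups, WT female and Mut male cells were the high ones, and the intervals of the other pair overlapped. Cells of unassigned sex are in none of these groups. All Serpinf1-positive astrocytes together held 141 H2-Eb1 UMIs in WT (489 cells) and 127 in Mut (692 cells). H2-Ab1, also on chromosome 17, was at 138, 59.7, 143 and 93.4 CPM in the same order. Cd74, on another chromosome, was at 122, 21.8, 77.6 and 61.9 CPM, and H2-Aa at 53.1, 13.3, 32.7 and 23.97.

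Per H2-Ab1 UMI, H2-Eb1 stood at 0.460 in WT female cells (0.370 to 0.570), 0.0476 in WT male cells (0.0171 to 0.107), 0.0363 in Mut female cells (0.0229 to 0.0550) and 0.230 in Mut male cells (0.161 to 0.322). H2-Aa per H2-Ab1 UMI ranged less, from 0.222 to 0.384. Single cells had the same split: of Serpinf1-positive astrocytes with at least 5 H2-Ab1 UMIs, 17 of 18 in WT female cells had an H2-Eb1 UMI, 1 of 7 in WT male cells, 10 of 42 in Mut female cells and 11 of 14 in Mut male cells. The groups high in H2-Eb1 per H2-Ab1 were the lower group for H2-K1 in each library: WT female cells held 44.6 CPM of H2-K1 against 95.7 in WT male cells, and Mut male cells 74.4 against 117.5 in Mut female cells.

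**Figure D4:**
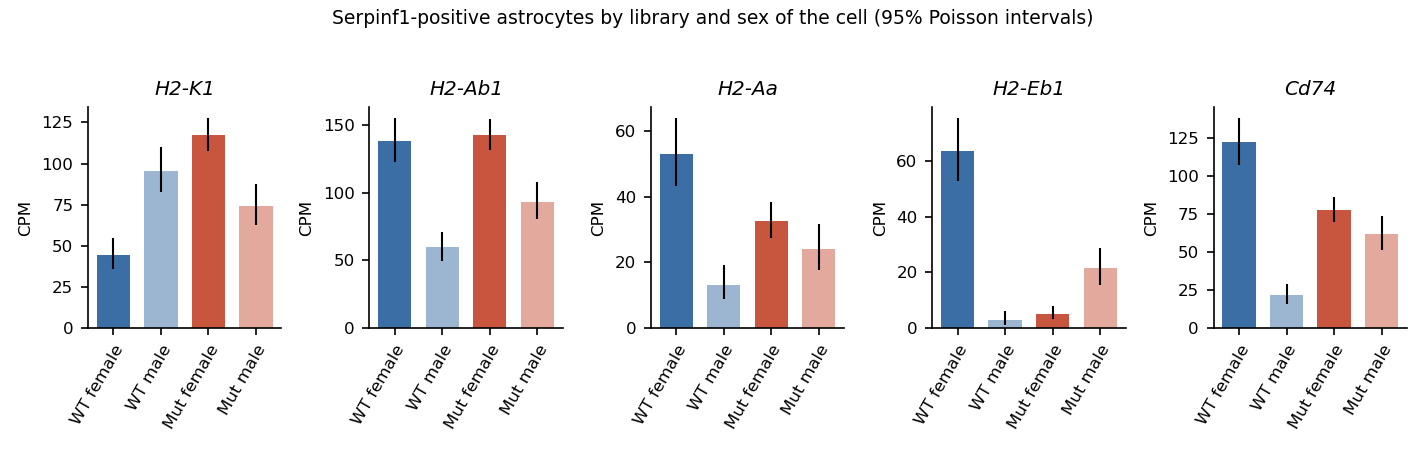
CPM of H2-K1, H2-Ab1, H2-Aa, H2-Eb1 and Cd74 in Serpinf1-positive astrocytes by library (WT blue, Mut red) and sex of the cell (female dark, male pale); bars start at 0 and lines are 95% Poisson intervals. H2-Eb1 is at 63.6 CPM in WT female cells and 2.84 in WT male cells, and WT female cells are lowest for H2-K1.

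Oligodendrocytes held H2-Ab1 in a setting without the invariant chain. Cells of the oligodendrocyte lineage were arranged by the number of oligodendrocyte markers they held (Mag, Mog, Cldn11, Enpp6, Mobp, Opalin, Plekhh1). Gpr17, a receptor of committed precursors and newly formed oligodendrocytes, was among the precursor markers that placed cells in this lineage. It had a UMI in 97.8% (WT) and 100% (Mut) of the cells with 3 or more oligodendrocyte markers, at 1141 and 1072 CPM. In the cells with none the shares were 79.4% and 83.9%, at 389 and 486 CPM. Median depth was 5553 (WT) and 5929 (Mut) UMIs with none and 10350 and 12410 with 3 or more. Gpr17 stood at 725 and 704 CPM with 4 or more of these markers. With none of them H2-Ab1 was at 5.20 CPM in WT (3.92 to 6.76, 1788 cells) and 2.46 in Mut (1.59 to 3.63, 1642 cells), and with 3 or more at 172 (137 to 213, 46 cells) and 104.5 CPM (80.1 to 134, 47 cells). The ratio was 33.1 (23.3 to 47.4) in WT and 42.5 (26.3 to 70.6) in Mut. With 4 or more markers it was 272 and 158 CPM, and 11 of 22 cells had a UMI in each library.

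Cd74 had 0 UMIs in these oligodendrocytes in both libraries, which allows up to 6.14 and 5.06 CPM, and Ciita had 1 in each. H2-Aa had 10 UMIs in WT (20.5 CPM) and 4 in Mut (6.74 CPM). Of the 16 and 18 oligodendrocytes with H2-Ab1, 0 had at least 2 Serpinf1 UMIs, and 1 and 2 had a pan-macrophage UMI. One WT cell held 26 of the 84 H2-Ab1 UMIs, and in Mut the richest held 10 of 62. By sex, WT female oligodendrocytes had 0 H2-Ab1 UMIs in 17 cells, which allows up to 18.0 CPM, while WT male cells had 57 UMIs in 24 cells (207 CPM), Mut female cells 47 in 31 (123 CPM) and Mut male cells 12 in 13 (71.3 CPM). The 5 WT cells of unassigned sex held 27 UMIs (575 CPM), 26 of them in 1 cell. The 3 such cells in Mut held 3 UMIs (70.7 CPM).

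Among the precursors the order was another one: H2-Ab1 was at 9.57 CPM in WT female cells, 2.60 in WT male cells, 2.83 in Mut female cells and 3.73 in Mut male cells. Over all precursors it stood at 5.66 CPM (WT) and 2.69 (Mut), or 0.475 (0.298 to 0.741), against 14.0 and 27.8 in astrocytes. Class I ran opposite to H2-Ab1 along the lineage. H2-K1 was at 37.5 CPM in WT and 46.4 in Mut with no such marker, and 8.19 and 3.37 with 3 or more. B2m was at 89.3 and 98.0 CPM, and then 10.2 and 33.7. H2-D1 had a ratio of 0.291 (0.163 to 0.483) in WT and 0.301 (0.192 to 0.450) in Mut.

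**Figure D5:**
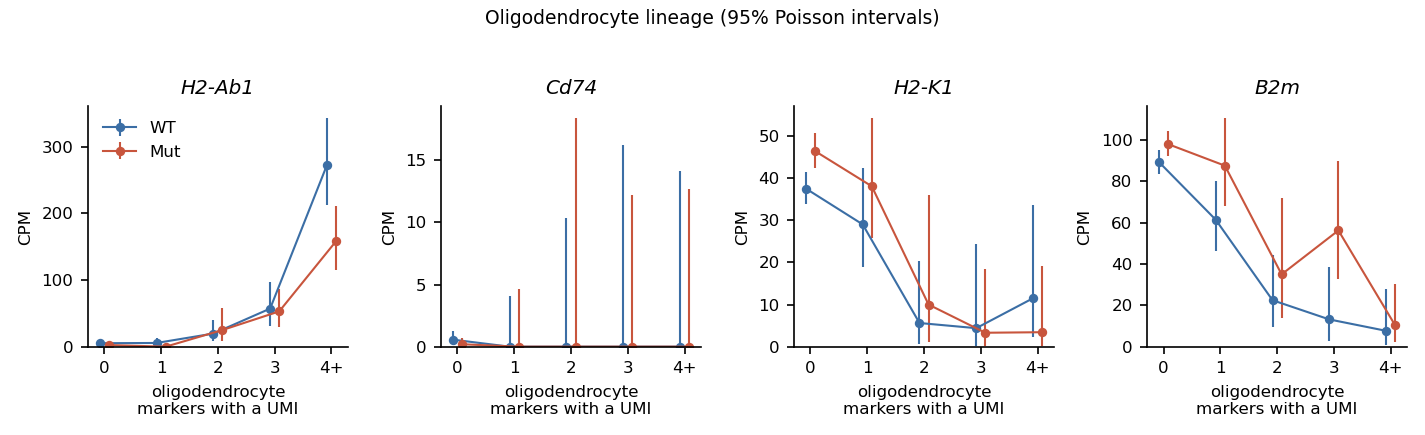
CPM of H2-Ab1, Cd74, H2-K1 and B2m in cells of the oligodendrocyte lineage by the number of oligodendrocyte markers with a UMI, WT in blue and Mut in red, with 95% Poisson intervals. H2-Ab1 reaches 272 CPM in WT and 158 in Mut at 4 or more markers, where Cd74 has 0 UMIs and H2-K1 and B2m are lower than at 0 markers.

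Cells usually known for class II were rare. No barcode met the dendritic cell rule, and the B cell class held 1 barcode in WT and 7 in Mut, with 35 and 70 class II UMIs. Single barcodes stood out: 1 of no class in WT held 278 class II UMIs and 1 in Mut held 287. Of the 8 Mut barcodes of the monocyte class, 1 held 266 of their 275 class II UMIs. In these 3 barcodes all of H2-Aa, H2-Ab1, H2-Eb1 and Cd74 were present, with at least 31 UMIs each.

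Genes whose level across the classes was most like that of the members were sought over 16 sums (8 classes in 2 libraries) among 4150 genes with at least 100 CPM in one of them, on log2(CPM + 5). For the class II sum these were Mertk (Pearson r = 0.962), Npl, Dcxr, Hk2 and Pip4k2a. In the 2 macrophage classes that sum was nearly all Cd74, with 421 of 427 UMIs in WT microglia. For H2-Ab1 alone the list was another one: Fbxo2 (0.943), Aldoc, Mt3, Slc7a10 and Rasa2. For the class I sum they were Syngr2 (0.986), Adam15, Colgalt1, Cmtm6 and Tpp1. The points share libraries and cell classes, so these values describe likeness over 8 classes and no more.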

How the data were processed

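Counts were deposited by the authors as 1 unfiltered gene by barcode table of UMI counts per library; per the file headers they came from Cell Ranger 4, and the submitters' processing notes name STAR and GRCm38. The libraries held 93664707 UMIs (WT) and 97891513 UMIs (Mut). Barcodes were filtered, given a class by marker rules and summed per class and library with Python 3.11.15 and scipy 1.17.1. Intervals are 95%: Poisson for levels in UMIs per 1000000 (CPM), Clopper-Pearson for shares, conditional binomial for ratios, and a count of 0 allows 3 counts. Differences were set on log2(CPM + 5) for genes with at least 30 UMIs, called from 1.5-fold, and checked on simulated data. TMM factors came from edgeR 4.0.16 (R 4.3.3). Doublets were handled by leaving out mixed barcodes, with Scrublet (scanpy 1.11.5), which would remove 972 and 816 barcodes, as an alternative. The 9 members were named by symbol, and like genes as the 5 with the highest correlation. The members and lists were chosen with earlier results of these data known, and list genes named beyond the rule (the 2 highest and 2 lowest values of each list) were chosen after their values were seen. Of the class II partners, 17 of 19 were found in the table. The values of 1 list gene are not reported here.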

Additional observations from a re-analysis of the deposited data

Results flagged for a closer look

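For 5 members the ratio of Mut to WT lay on opposite sides of 1 in female and male cells, with neither counting interval reaching 1. Each stratum is part of 1 library, so the difference between the strata was not tested. H2-K1 stood at 2.47 times the WT level among female astrocytes (2.29 to 2.66) and 0.811 among male ones (0.758 to 0.869). Among oligodendrocyte precursors it was 2.62 and 0.759, and in Serpinf1-positive astrocytes 2.64 and 0.778. H2-D1 was at 2.78 among female astrocytes and 0.868 among male ones, and at 1.996 and 0.872 among endothelial cells.

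In Serpinf1-positive astrocytes H2-Aa, Cd74 and H2-Eb1 lay the other way round, while H2-Ab1 was at 1.03 (0.896 to 1.19) among female cells and 1.56 (1.24 to 1.98) among male cells. H2-Aa was at 0.616 among female cells and 1.81 among male cells, and Cd74 at 0.635 and 2.84. H2-Eb1 was at 0.0816 (0.0499 to 0.128) and 7.56 (3.20 to 21.7), the latter from 6 UMIs in WT. Over all astrocytes H2-Eb1 was at 0.130 and 7.08. In microglia Cd74 was at 1.30 among female cells and 0.678 among male cells.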

How the results depend on the processing

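No paired analysis was possible because each group has 1 library. Of 140 recomputed values 33 moved further than their counting interval, 2 turned direction and 105 did neither. The 105 include 12 counts of list genes called in astrocytes, which have no interval and stayed at 0. The cause of the moves was not tested. In male cells the astrocyte log2 ratio of Mut to WT became -0.29 for H2-K1 and -0.18 for H2-D1, with 0.058 for B2m; in female cells it was 1.23 for H2-K1 and 1.29 for H2-D1. The class II sum in astrocytes was 55.3 CPM (WT) and 50.6 (Mut) in female cells, and 14.0 and 35.9 in male cells. The interval of its Mut to WT ratio included 1 among female cells and lay above 1 among male cells. Both Mut values of the sum were below the 53.7 CPM of all Mut astrocytes, which include cells of unassigned sex. In microglia the sum was 224 CPM in Mut female cells, 142 in WT male cells and 97.6 in Mut male cells. Oligodendrocyte H2-Ab1 was 0 CPM in WT female cells and 71.3 in Mut male cells. The Serpinf1 ratio of class II was 82.6 in WT female cells, and 49.1 (WT) and 52.5 (Mut) in male cells. With Serpinf1-positive set at 1 UMI or more it was 46.3 and 46.2, and at 3 or more 83.2 and 75.2. With 4 markers per class, the astrocyte sum was 34.9 and 57 CPM and oligodendrocyte H2-Ab1 252 and 148. Thinned to 1000 UMIs, the astrocyte sum was 34.1 CPM in WT, the microglial sum 190.3 in Mut, oligodendrocyte H2-Ab1 130 in WT, the Serpinf1 ratio 44.6 in Mut, and the astrocyte log2 ratio 0.23 for H2-K1 and 0.013 for B2m. A pseudocount of 10 CPM gave 0.44 for H2-D1. With mixed barcodes kept, chosen after seeing the data, the astrocyte sum was 35.8 and 56.4 CPM and the microglial sum 148 in WT. The female to male ratio of H2-K1 in astrocytes ranged from 0.434 to 0.447 in WT and 1.33 to 1.37 in Mut over 7 alternatives. Depth limits Tap1, Ciita and the oligodendrocyte values, which rest on few UMIs.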
